A study of Mus musculus with 168 samples.

Results

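The comparison described here is that of wild-type mouse cortex at 10 months with wild-type mouse cortex at 2 months. Its members are the libraries titled WT 10 month and WT 2 month in the deposited table of estimated gene counts, and they number 16, which are 2 of the 21 groups of 8 cortex libraries in the series. Each age holds 8 libraries, 4 from females and 4 from males. All 16 libraries came from C57BL/6 mice of wild-type genotype, with no knock-in allele at Htt, the gene mutated in Huntington's disease. The labels state that these mice shared cages with heterozygous Q20 mice, which carry a knocked-in Htt allele of nominal length 20 CAG repeats. PolyA RNA was sequenced from flash-frozen tissue, and the rest of the series holds knock-in mice and wild types of 6 months. The labels number the libraries of a group but do not say that each came from a separate animal, so that p-values measure the spread between these libraries, which may be technical in part.

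The cortex goes on maturing well after its neurons have been born. Oligodendrocyte precursors divide and turn into newly forming and then myelinating oligodendrocytes, and the fibroblasts of the meninges and of the vessel walls lay down collagens early and make less of them in the adult. Genes of growing axons and of immature neurons are known to be highest in the young brain. Below the cortex lie the striatum, built of GABAergic projection neurons with dopamine receptors, and the basal forebrain, whose cholinergic neurons send their axons to the cortex. In whole tissue, fewer cells of a type and less RNA per cell cannot be told apart.

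The estimated counts summed to between 29338750 and 44472275 per library over the 16 libraries. Levels are given as CPM, the count of a gene scaled to a common library total, after TMM scaling, and differences as log2 of 10 months over 2 months. A group is written from its lowest library over its median to its highest. The sex labels matched the data, since Xist was at 549 to 1405 CPM in the 8 female libraries of the comparison and at no more than 2.52 CPM in the male ones, while Ddx3y was at 58.6 CPM or more in males and at no more than 0.0668 CPM in females. Htt did not pass the test for age (median 203 CPM at 2 months and 197 CPM at 10 months, adjusted p = 0.90). Slc17a7, the vesicular glutamate transporter of cortical neurons, was at 884 to 1092 CPM in all 16 libraries. Female 2 of 2 months stood apart, with a median correlation of 0.979 with the other libraries of its age against 0.987 or more for the rest, and leaving it out raised the genes higher at 10 months from 616 to 944. Female 1 of 2 months held 262 CPM of 14 liver transcripts, against at most 2.20 CPM in the other libraries of the comparison. The number that opens each library name ran in a separate series for each age, and the codes that resemble cage names each belong to 1 age and sex, so that library series and age cannot be told apart.

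The libraries of the ages also differed in transcripts of the striatum, the tissue below the cortex. The striatal level was taken as the mean log2 CPM of 14 genes of striatal projection neurons. It ran from 4.56 over a median of 4.77 to 5.02 at 2 months and from 3.23 over a median of 3.56 to 4.14 at 10 months, so that the groups did not overlap. At 6 months, 6 wild-type libraries lay between 4.73 and 5.16, while female 2 was at 4.12 and male 2 at 3.40, both within the range of 10 months. The 48 knock-in libraries of each age had medians of 4.71 at 2 months, 4.66 at 6 months and 3.35 at 10 months, and there the ages overlapped (3.46 to 5.27 at 2 months and 3.03 to 4.19 at 10 months). Results below are therefore also given from a fit of the 24 wild-type libraries of 2, 6 and 10 months with this level as a covariate, an alternative chosen with the data in view. That fit is meant wherever the covariate is named alone. A second fit holds all libraries of the series with the same covariate and is called the fit of the whole series. Within wild type, those 2 libraries of 6 months are the only ones below 4.56 outside 10 months. What sets the level was not tested.

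**Figure D1:**
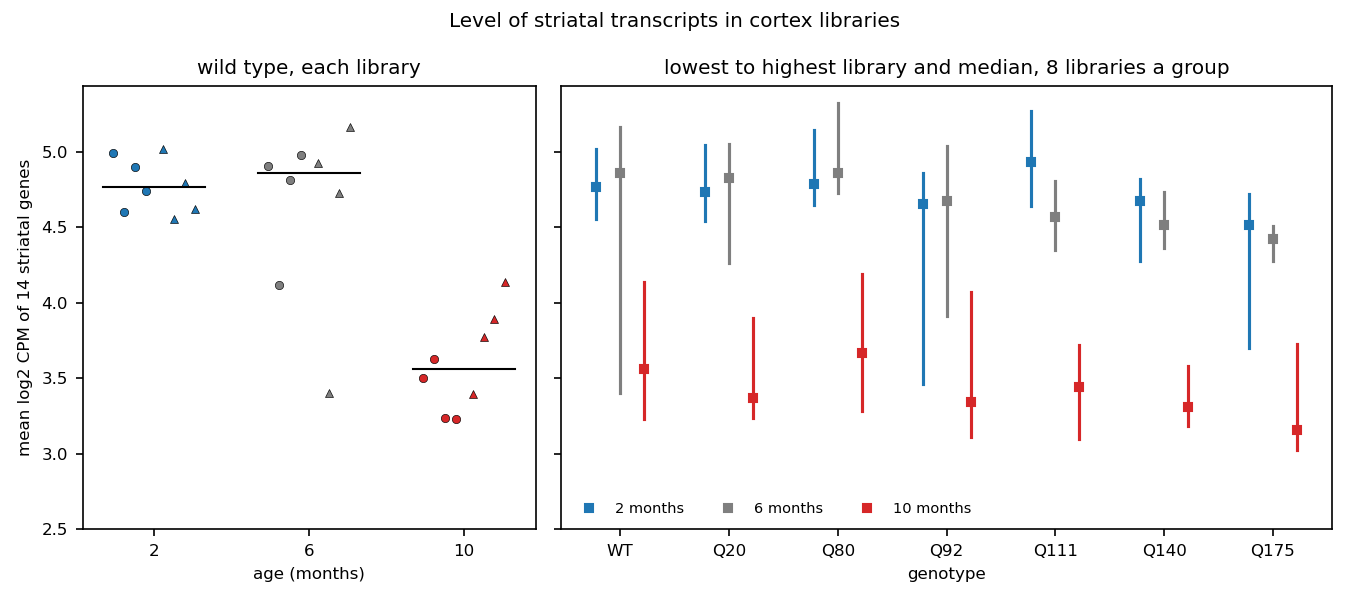
The left plot shows the mean log2 CPM of 14 striatal genes in each wild-type library by age (circles female, triangles male, line median), and the right plot shows the lowest, median and highest library of each genotype and age, with 8 libraries a group. All 8 wild-type libraries of 10 months and 2 of 6 months lie at or below 4.14, and the 2-month wild types lie at or above 4.56.

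Of 16489 genes tested with edgeR's quasi-likelihood test, 1561 differed between 10 and 2 months at an adjusted p under 0.05, which is 9.47% of those tested. There were 616 genes higher at 10 months (3.74%) and 945 lower (5.73%), and the median log2 difference over all tested genes was -0.0025. Most differences were small. Only 135 called genes differed by more than 2-fold, 16 of them higher and 119 lower, and the median size of a called difference was 0.34 on the log2 scale. The fit of the 24 wild-type libraries called 1995 genes without the covariate, 827 higher and 1168 lower, and 31 with it, 22 higher and 9 lower. The fit of the whole series called 2801 without it and 534 with it, 262 higher and 272 lower. With the covariate in the 24 libraries, standard errors were 1.52 times as large for the higher genes and 1.54 times for the lower ones. The higher genes then kept a median of 62.4% of their difference and the lower ones, striatal list left out, 51.1%.

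**Figure D2:**
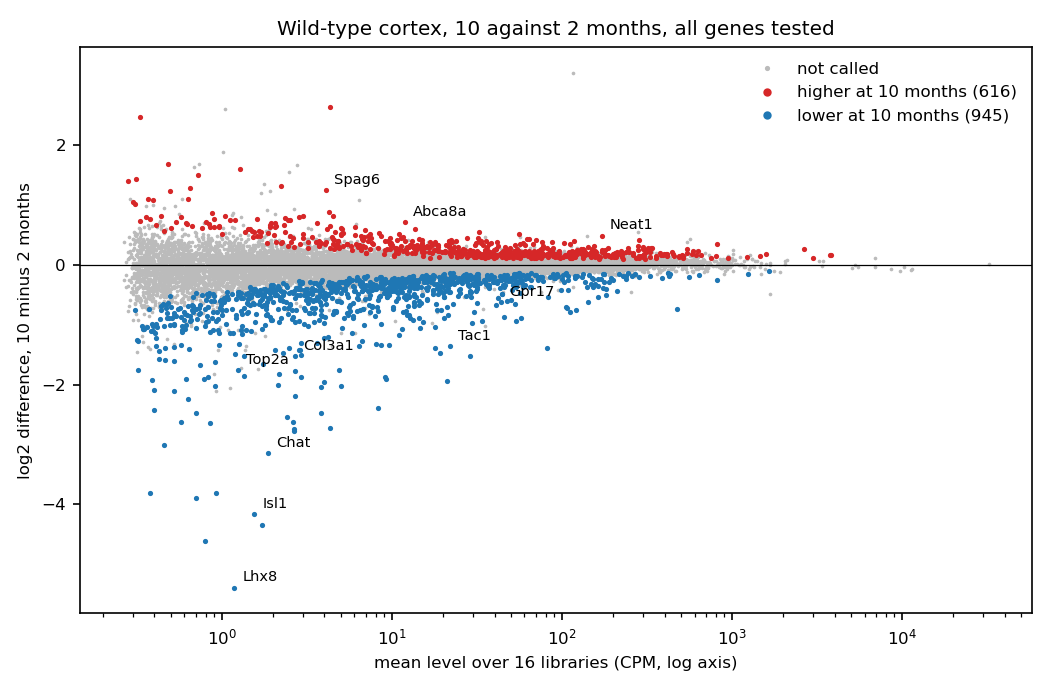
Each point is a gene, with its mean level over the 16 libraries in CPM on a log axis and its log2 difference, 10 minus 2 months. The 616 higher genes in red mostly differ by less than 2-fold, and the 945 lower genes in blue reach down to Lhx8 at -5.39.

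The strongest differences were losses of ventral forebrain transcripts. Every tested gene of the lists for basal forebrain cholinergic neurons and for striatal projection neurons was lower at 10 months. Isl1, a homeodomain factor of cholinergic and striatal neurons, ran from 2.12 over a median of 3.03 to 3.65 CPM at 2 months and from 0.0606 over 0.139 to 0.352 CPM at 10 months. It fell by 4.17 ± 0.22 on the log2 scale (SE, n = 8 a group, adjusted p = 2.4e-09). The groups did not overlap, as for the next 2 genes. Chat, the enzyme that makes acetylcholine, ran from 2.15 over 3.70 to 4.33 CPM at 2 months and from 0.241 over 0.342 to 0.535 CPM at 10 months, and was 8.87-fold lower. Lhx8, a factor that specifies cholinergic neurons, ran from 0.729 over 2.39 to 3.47 CPM and from 0 over 0.0308 to 0.147 CPM, with a log2 difference of -5.39 ± 0.43. In a list of 10 cholinergic genes that was added after the values were seen, 9 were tested and 9 were lower, with a median log2 difference of -3.82. The summed level of the list was 64.9 to 94.1 CPM at 2 months and 45.7 to 52.0 CPM at 10 months. Most of that sum was Ache, acetylcholinesterase, with medians of 52.5 CPM and 46.6 CPM. With the striatal level as a covariate, 0 of the 9 were called by edgeR, 7 were at an unadjusted p under 0.05, and the median was -1.28. In the fit of the whole series 4 of the 9 were lower, among them Isl1 (-1.33 ± 0.39) and Lhx8 (-2.40 ± 0.63).

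All 14 of 14 genes of striatal projection neurons were lower at 10 months, with a median log2 difference of -1.16. Their summed level was 668 to 909 CPM at 2 months and 371 to 560 CPM at 10 months. Penk, the precursor of the enkephalins, ran from 96.1 over 120 to 137 CPM at 2 months and from 30.7 over 44.5 to 63.9 CPM at 10 months, and was 2.61-fold lower. Adora2a, the adenosine receptor of indirect-pathway neurons, was 3.65-fold lower, and Drd2, the dopamine receptor of the same cells, 3.87-fold lower. No library of 10 months reached the lowest of 2 months for these 3 genes. Tac1, which encodes substance P, went from 26.0 over 31.1 to 35.9 CPM to 9.58 over 11.7 to 15.4 CPM (adjusted p = 1.9e-08). At 6 months Tac1 was at 30.2 to 35.8 CPM in 6 libraries and at 14.7 and 13.1 CPM in female 2 and male 2, the libraries with the low striatal level. The covariate holds the 14 genes themselves, and with it their median was -0.02 by construction. Gpr149, Slc35d3 and Six3, which belong to neither list, were lower too (log2 differences of -2.01, -1.82 and -2.78), and none of these 3 was called with the covariate in either fit.

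The genes that rose with the smallest p-values had varied roles, and most of their rises were below 2-fold. Gatm, which carries out the first step of creatine synthesis (chr2:122594467-122611303 in GRCm38), ran from 96.3 over 100 to 105 CPM at 2 months and from 126 over 134 to 145 CPM at 10 months. It was 1.33-fold higher (log2 difference 0.41 ± 0.03, adjusted p = 4.8e-07). Il33, an alarmin cytokine held in the nuclei of glia, ran from 43.4 over 45.1 to 52.5 CPM and from 60.4 over 64.4 to 72.3 CPM, 1.43-fold higher (adjusted p = 8.2e-07). Abca8a, a lipid transporter of the ABC family, ran from 7.03 over 8.73 to 10.9 CPM and from 12.9 over 14.7 to 16.6 CPM, 1.65-fold higher. In none of these 3 genes did the ages overlap. Neat1, the noncoding RNA on which paraspeckles form, rose from a median of 143 CPM to 200 CPM, and Casp1, the protease that activates interleukin-1 beta, from 1.98 CPM to 3.60 CPM. Anln, a septin-binding protein of myelin, rose from 26.0 CPM to 38.1 CPM.

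These 6 genes were called with the striatal level as a covariate too, with log2 differences of 0.46 ± 0.05 for Gatm, 0.65 ± 0.08 for Il33, 1.01 ± 0.12 for Abca8a, 0.53 ± 0.09 for Neat1, 0.77 ± 0.15 for Casp1 and 0.58 ± 0.11 for Anln. Arsg, a lysosomal sulfatase (0.44 ± 0.09), was also called, and so were Rnf207 (0.55 ± 0.10), Crybg2 (0.93 ± 0.17) and Grid2ip, a scaffold for glutamate receptors of the delta type (0.89 ± 0.19). In the 16 libraries Rnf207 was at 0.47 and Crybg2 at 0.70 on counts, but at 0.25 (adjusted p = 0.13) and 0.40 (adjusted p = 0.065) with limma on log2(FPKM + 0.1), which did not call them. Cpeb1, a regulator of mRNA polyadenylation, and Dkk3, a secreted protein of the dickkopf family, rose by 0.37 ± 0.04 and 0.42 ± 0.05 in the 16 libraries. With the covariate they were at 0.23 and 0.15 and were not called (adjusted p = 0.31 and 0.45), while the fit of the whole series called both (0.24 and 0.24, adjusted p = 0.00044 and 0.00036). Mybpc1 and Zfp367 likewise rose by 0.58 and 0.34 and were not called with it (adjusted p = 0.29 and 0.42), and were called in the fit of the whole series (adjusted p = 0.0040 and 0.00092). Spag6, a protein of the central apparatus of cilia, rose from a median of 2.40 CPM to 5.75 CPM (2.38-fold, adjusted p = 1.2e-08), and its value is uncertain where reads are shared with a near copy of the gene. Fmo2, a flavin monooxygenase, and Rpe65, the isomerase of the retinoid cycle, rose 1.85-fold and 1.76-fold. The ages overlapped in these 2. There are 34 genes named for the smallest p or the largest difference, a choice that favours groups without overlap.

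**Figure D3:**
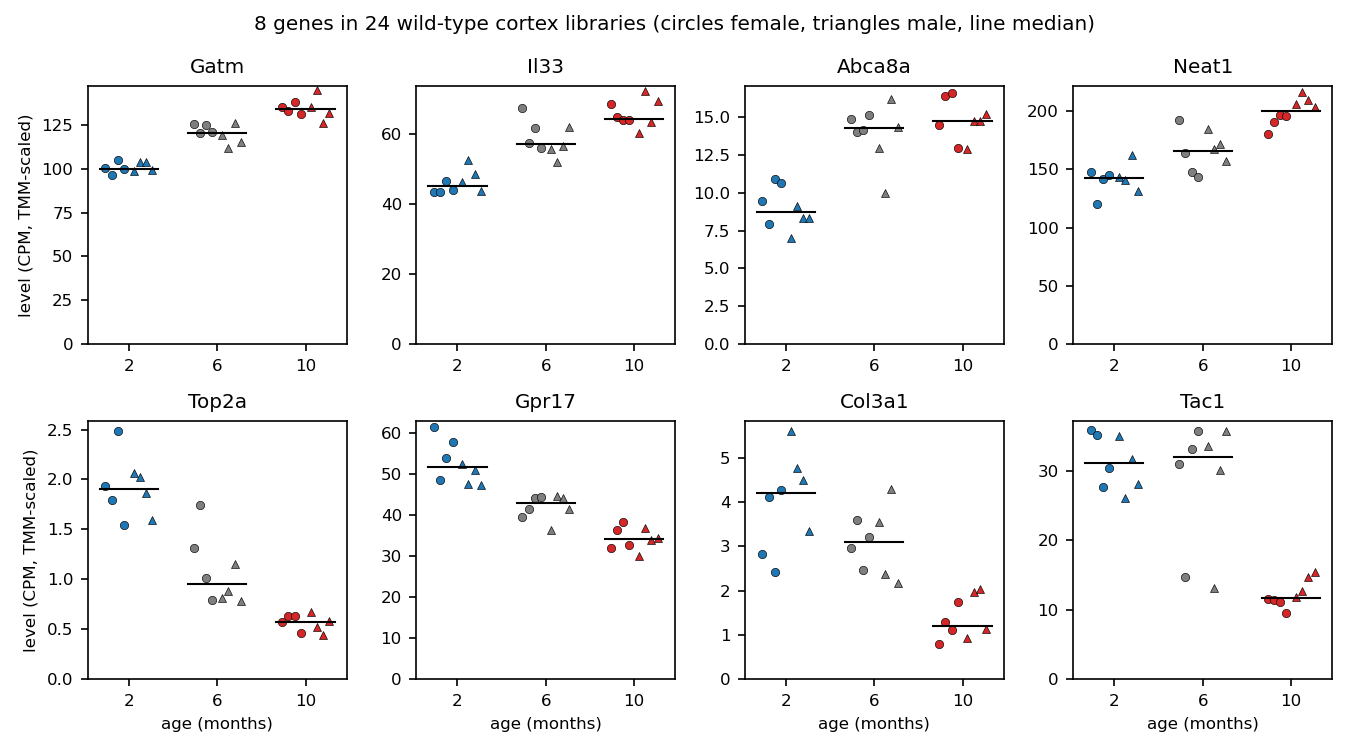
Levels of 8 genes in CPM, on axes from 0, in each of the 24 wild-type libraries by age in months (circles female, triangles male, line median). Gatm, Il33, Abca8a and Neat1 are higher and Top2a, Gpr17 and Col3a1 lower at 10 months with no overlap with 2 months, and Tac1 is low at 10 months and in 2 libraries of 6 months.

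Some genes of dividing cells, all at low levels but for Ccnd1, were lower at 10 months. Of 30 cell cycle genes, 26 were tested, and 6 were lower and 0 higher, against 5.73% and 3.74% of all tested genes, shares that apply to each list below. The list had a median log2 difference of -0.19. Top2a, the topoisomerase of replicating and dividing cells, ran from 1.54 over 1.90 to 2.49 CPM at 2 months, from 0.786 over 0.948 to 1.74 CPM at 6 months and from 0.440 over 0.575 to 0.676 CPM at 10 months. It was 3.39-fold lower at 10 than at 2 months (log2 difference -1.76 ± 0.13, adjusted p = 7.4e-08), the ages did not overlap, and it stayed called with the striatal covariate (-1.90 ± 0.25). Mki67, the marker of cycling cells, ran from 1.71 over 2.40 to 2.75 CPM and from 0.644 over 1.03 to 1.65 CPM, and was 2.10-fold lower. Cenpf, of the kinetochore, was 1.79-fold lower, Kif11, the kinesin of the spindle, 1.38-fold, Birc5, of the chromosomal passenger complex, 1.53-fold, and Ccnd1, the cyclin of the G1 phase, 1.16-fold. The ages overlapped for Kif11, Birc5 and Ccnd1 and not for the other 3. Of these 6 only Top2a was called with the covariate, while 8 list genes were at an unadjusted p under 0.05. The fit of the whole series, in which 30 list genes were tested, called 6 lower and 0 higher (median -0.27), among them Top2a, Mki67 and Kif11. Mcm2 to Mcm7, the helicase subunits of DNA replication, lay between -0.12 (Mcm7) and 0.02 (Mcm2) and did not pass the test.

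Promoters of cell cycle genes are known to carry the motif TTTGAA, found in genes of late cell cycle phases, and the CCAAT box. In RefSeq windows of GRCm38.p6 from 250 bases before to 50 bases after the start of the gene, read on both strands, 12 of the 23 list genes with a window held TTTGAA (52.2%, against 20.2% of 27025 genes) and 21 held CCAAT (91.3%, against 41.1%). The 150 bases before the start are printed 5′ to 3′ for 3 lower genes that hold both, with both motifs and their reverse complements in capitals, to show how the motifs lie. Of the 5 lower genes with a window, 4 held TTTGAA and 4 held CCAAT, and Birc5 held neither.
Mki67 (chr7:135716380-135716529, minus strand): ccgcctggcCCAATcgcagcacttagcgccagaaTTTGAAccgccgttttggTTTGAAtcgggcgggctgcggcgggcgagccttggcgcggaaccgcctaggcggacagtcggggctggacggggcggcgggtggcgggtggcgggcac
Top2a (chr11:99024190-99024339, minus strand): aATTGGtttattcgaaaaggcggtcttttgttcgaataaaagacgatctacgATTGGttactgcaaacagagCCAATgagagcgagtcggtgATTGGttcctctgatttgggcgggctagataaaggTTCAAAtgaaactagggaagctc
Kif11 (chr19:37376232-37376381, plus strand): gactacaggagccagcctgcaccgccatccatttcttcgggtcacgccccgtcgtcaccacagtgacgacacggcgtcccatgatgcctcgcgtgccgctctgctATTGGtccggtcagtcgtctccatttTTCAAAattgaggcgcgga
Top2a holds CCAAT 4 times on either strand in these bases, with TTTGAA beginning 23 bases before the start, and Mki67 holds TTTGAA in 2 places. In Kif11, TTTGAA begins 19 bases before the start. These are matches of letters and no measure of a factor.

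Several genes of the early oligodendrocyte lineage were lower at 10 months. Of 11 tested genes of oligodendrocyte precursors, 5 were lower and 0 higher, with a median log2 difference of -0.21. Gpr17, a receptor of precursors that have begun to differentiate, ran from 47.4 over 51.8 to 61.4 CPM at 2 months, from 36.3 over 42.9 to 44.7 CPM at 6 months and from 29.9 over 34.2 to 38.4 CPM at 10 months. It was 1.53-fold lower (adjusted p = 1.3e-06), without overlap, and was at -0.60 ± 0.09 with the striatal covariate, under which it stayed called. Of 10 tested genes of newly forming oligodendrocytes, 4 were lower and 1, Bcas1, higher (median -0.23), or 2 higher without female 2 of 2 months. Mpzl1, a cell surface relative of myelin protein zero, was 1.32-fold lower and stayed called at -0.40 ± 0.06. Of the precursor genes, C1ql1, a secreted protein of the C1q family, was 1.52-fold lower without overlap. Cspg4, the proteoglycan NG2, was 1.30-fold lower, and the transcription factor Olig1 1.26-fold lower. Pdgfra, the receptor that defines these cells, had a median of 69.0 CPM at 2 months and 57.8 CPM at 10 months and did not pass the test (adjusted p = 0.065). With the covariate 0 of the 11 precursor genes were called by edgeR, and 0 were at an unadjusted p under 0.05, while the fit of the whole series called 1 lower. Over the 8 libraries of 6 months, 7 of the 11 had a correlation above 0.5 with the striatal level, which is a description of libraries that share their RNA. So had 56.1% of all genes lower at 10 months, striatal list left out, and 16.6% of genes not called.

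Among 22 genes of mature oligodendrocytes and myelin, 5 rose and 2 fell, and the median log2 difference was -0.01. Besides Anln, Ermn, a cytoskeletal protein of oligodendrocytes, rose from a median of 50.5 CPM to 62.9 CPM, Trf, transferrin, from 194 CPM to 222 CPM, and Hapln2, a link protein of the node of Ranvier, from 14.6 CPM to 20.9 CPM. Gsn, gelsolin, was among the 2 that fell (52.3 to 42.3 CPM), of which 1 was called without female 2 of 2 months. Mbp, myelin basic protein, did not pass the test, with medians of 1932 CPM and 2048 CPM (adjusted p = 0.56). Anln was the 1 gene of the list called with the covariate.

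Nearly all listed fibroblast genes fell, and some matrix genes. Of 14 genes of meningeal and perivascular fibroblasts, 13 were lower and 0 higher, with a median log2 difference of -0.55. Their summed level was 663 to 1006 CPM at 2 months, 562 to 967 CPM at 6 months and 353 to 657 CPM at 10 months. Slc6a13, a GABA and taurine transporter of the meninges, ran from 8.08 over 9.96 to 12.9 CPM and from 3.77 over 5.54 to 7.45 CPM (1.82-fold lower, adjusted p = 0.00027). Aldh1a2, which makes retinoic acid, was 1.71-fold lower, and Ptgds, prostaglandin D synthase, 1.66-fold. With the striatal covariate 0 of the 14 were called by edgeR, 10 were at an unadjusted p under 0.05, and the median was -0.48. The fit of the whole series called 7 of the 14 lower (median -0.57). Over the 8 libraries of 6 months the median correlation of the list with the striatal level was 0.11, as a description.

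Of 23 collagens, 8 were lower and 0 higher (median -0.15, and 1 higher without female 2 of 2 months), and of 26 tested genes of other matrix and basement membrane, 12 were lower and 0 higher (median -0.26). Col3a1, a fibrillar collagen, ran from 2.42 over 4.19 to 5.59 CPM at 2 months and from 0.783 over 1.21 to 2.02 CPM at 10 months, and was 2.88-fold lower (log2 difference -1.52 ± 0.19, adjusted p = 3.2e-05). Col1a2, a chain of type I collagen, was 1.84-fold lower, and Col1a1, its partner, 1.73-fold. The ages did not overlap for Col3a1 and Col1a2. With the covariate Col3a1 was at -1.43 ± 0.31 (adjusted p = 0.053) and Col1a2 at -0.75 ± 0.17 (adjusted p = 0.058), and the fit of the whole series called both (adjusted p = 6.4e-05 and 6.5e-05). Serpinh1, the collagen chaperone of the endoplasmic reticulum, went from a median of 14.4 CPM to 10.5 CPM and was called with the covariate (-0.78 ± 0.14). Tnc, tenascin C, fell from a median of 4.42 CPM to 2.26 CPM, without overlap. In the vessel wall, 6 of 12 mural cell genes were lower and 0 higher, led by the contractile genes of smooth muscle. Acta2, smooth muscle actin, was 1.94-fold lower and Tagln, transgelin, 1.97-fold. Of 18 endothelial genes 4 were lower and 0 higher, among them Tek and Tie1, receptors of the angiopoietin system (log2 differences of -0.35 and -0.34). With the covariate edgeR called 0 collagens, 1 other matrix gene, 0 mural genes and 0 endothelial genes. At an unadjusted p under 0.05 were 4, 9, 6 and 11 genes of these lists. The fit of the whole series called 3, 7, 5 and 3 of them lower and 0 higher.

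Genes of immature neurons and of axon growth were lower where they changed. Of 24 tested, 11 were lower and 0 higher, with a median log2 difference of -0.21, and without female 2 of 2 months 1 was higher. Dpysl3, a collapsin response mediator of growth cones, ran from 46.9 over 52.6 to 56.9 CPM at 2 months, from 38.4 over 44.9 to 47.7 CPM at 6 months and from 33.9 over 36.6 to 42.2 CPM at 10 months (1.39-fold lower, adjusted p = 6.5e-07). Its lowest values at 6 months, 38.4 and 38.8 CPM, were those of female 2 and male 2, the libraries with the low striatal level. The others of that age were at 43.6 CPM or more. The log2 difference of Dpysl3 was -0.28 ± 0.06 with the covariate in the 24 wild-type libraries (adjusted p = 0.071) and -0.38 ± 0.05 in the fit of the whole series (adjusted p = 2.0e-08). Igfbpl1, a secreted factor of young neurons, went from a median of 1.53 CPM to 0.207 CPM (6.25-fold lower), and Sox4, a transcription factor of neuronal differentiation, from 15.6 CPM to 10.5 CPM. Cd24a, a surface protein of neuroblasts, was 1.79-fold lower and Dpysl5 1.28-fold. The ages did not overlap for these 5 genes. Dcx, the doublecortin of migrating neurons, had medians of 76.7 CPM and 62.2 CPM and did not pass the test (adjusted p = 0.31). At 6 months 13 of the 24 had a correlation above 0.5 with the striatal level over 8 libraries, and 4 were below -0.5. These shares were 16.6% and 21.5% of genes not called. They were 56.1% and 2.36% of genes lower at 10 months, striatal list left out. With the covariate 0 of the 24 were called by edgeR, with 10 at an unadjusted p under 0.05, and the fit of the whole series called 6 lower. Igf2bp2, an RNA-binding protein of growing tissue that belongs to another list, fell from a median of 1.42 CPM to 0.665 CPM and stayed called with it (-1.16 ± 0.22).

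Cortical neuron genes changed in both directions. Of 12 genes of glutamatergic neurons, 6 rose and 0 fell, with a median log2 difference of 0.20. Neurod6, a factor of differentiated pyramidal neurons, ran from 40.9 over 54.6 to 58.4 CPM at 2 months and from 64.0 over 68.0 to 81.3 CPM at 10 months, 1.35-fold higher and without overlap. With the striatal covariate the median of the list was 0.01, 0 were called by edgeR and 0 were at an unadjusted p under 0.05, with Neurod6 at 0.15. In the fit of the whole series 1 of the 12 was higher. At 6 months 11 of the 12 had a correlation below -0.5 with the striatal level over 8 libraries, against 21.5% of genes not called. Of 22 interneuron genes 2 rose and 7 fell (median -0.20). Calb2, calretinin, was 2.61-fold lower, Gad2, an enzyme of GABA synthesis that striatal neurons also express, went from a median of 212 CPM to 146 CPM, and Pvalb, parvalbumin, rose from 44.7 CPM to 59.6 CPM. Gad2 was at 0.01 with the covariate. With it 0 of the 22 interneuron genes were called by edgeR, 3 were at an unadjusted p under 0.05, and the median was -0.05. The fit of the whole series called 1 of the 22 lower and 0 higher. Genes of deep layers split likewise, with Foxp2, which striatal neurons also express, lower at -0.60 ± 0.05 and Fezf2, of layer V projection neurons, higher at 0.34 ± 0.07. With the covariate Foxp2 was at -0.06, and 0 of 14 deep layer genes were called by edgeR. The fit of the whole series called 1 of these 14 higher and 0 lower. Among receptors, 4 of 24 glutamate receptor genes fell and 0 rose, and of 20 genes of GABA and glycine transmission 2 rose and 3 fell, against 9.47% of all tested genes called. With the covariate edgeR called 0 genes of either receptor list. In the fit of the whole series 0 glutamate receptor genes were called, and in the GABA and glycine list 1 was higher and 1 lower.

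Some genes of astrocytes and of activated microglia were lower, and microglial markers moved little. Of 16 astrocyte genes 4 were lower and 0 higher, namely Gja1, Slc1a3, Mlc1 and Aqp4, by 0.15 to 0.22 on the log2 scale. Of 16 tested genes of reactive astrocytes 5 were lower and 0 higher. Without female 2 of 2 months 1 astrocyte gene was higher. With the covariate edgeR called 0 genes of either astrocyte list. The fit of the whole series called 4 astrocyte genes and 2 genes of reactive astrocytes lower and 0 higher. Gfap, the intermediate filament of reactive astrocytes, ran from 105.5 over 110 to 146 CPM at 2 months and from 88.1 over 98.3 to 113 CPM at 10 months (adjusted p = 0.033), and the ages overlapped. Of 20 microglial genes Ctss, a lysosomal protease, rose and Csf1r, the receptor that microglia need to survive, fell, by 0.20 and 0.15 on the log2 scale. Of 19 tested genes of activated and lysosomal microglia 4 were lower and 0 higher, or 2 higher without female 2 of 2 months. Their median log2 difference was 0.02, and 0 were called in either fit with the covariate. Of 16 complement genes 2 rose and 2 fell. C4b, a component of the classical pathway with a close relative in the genome, went from a median of 18.5 CPM at 2 months to 27.6 CPM at 6 months and 25.4 CPM at 10 months, and was called at 10 months in the 16 libraries (0.39 ± 0.09) and with the covariate (0.75 ± 0.14). In C4b 4 of the 8 libraries of 10 months lay above all of 2 months. Interferon-stimulated genes counted 2 of 26 higher, Ifi27 and Xaf1, and 0 lower, which is near the share of all tested genes that were higher (3.74%).

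Several clock genes and clustered protocadherins rose. Of 18 genes of the circadian clock 5 rose and 0 fell, with a median log2 difference of 0.18. They were Bhlhe41, Hlf, Nr1d2, Cry1 and Rora, of which Bhlhe41, a repressor of the clock, ran from 32.5 over 34.6 to 41.4 CPM at 2 months and from 37.9 over 48.5 to 53.3 CPM at 10 months. Without female 2 of 2 months 8 of the 18 rose. Arntl, which drives the clock, did not pass the test (medians of 32.8 CPM and 34.2 CPM, adjusted p = 0.56). With the striatal covariate 0 of 18 were called by edgeR, 5 were at an unadjusted p under 0.05 and the median was 0.03. In the fit of the whole series 3 were higher, with a median of 0.17, and the time of day of tissue collection is not given in the labels. Of 21 beta protocadherins, adhesion proteins of neurons that lie in a cluster, 5 rose and 0 fell (median 0.21). Pcdhb9 ran from 9.07 over 10.9 to 11.9 CPM at 2 months, from 13.2 over 13.8 to 15.99 CPM at 6 months and from 15.6 over 16.4 to 17.7 CPM at 10 months, and stayed called with the covariate (0.63 ± 0.08). These genes are near copies of one another, so that counting may split their reads. Of 16 tested genes of senescence and the p53 response, Ccng1 rose from a median of 79.4 CPM to 96.0 CPM and Eda2r from 0.319 CPM to 0.582 CPM, and 0 fell. Cdkn1a, the cell cycle inhibitor p21, had medians of 18.8 CPM and 15.7 CPM and did not pass the test.

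Energy metabolism and protein synthesis showed little change. Of 30 nuclear genes of the respiratory chain, 13 mitochondrially encoded genes and 25 ribosomal protein genes, 0 passed edgeR's test, and 2, 1 and 2 were at an unadjusted p under 0.05. DESeq2 called 0, 0 and 1. Their median log2 differences were -0.03, -0.04 and -0.08. Heat shock and chaperone genes counted 1 of 22 lower, Hspb8, and cholesterol synthesis genes counted 2 of 25 higher, and 4 without female 2 of 2 months. Markers of other neighbouring tissue were measured too. Of 12 choroid plexus genes 0 passed edgeR's test, 5 were at an unadjusted p under 0.05 and DESeq2 called 4, and Ttr, transthyretin, was at 653, 227 and 608 CPM in female 1, female 2 and male 1 of 10 months and at 84.2 CPM or less in the other 13 libraries. Of 10 hippocampal genes 2 were higher and 1 lower, and of 10 thalamic genes 3 were lower.

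**Figure D4:**
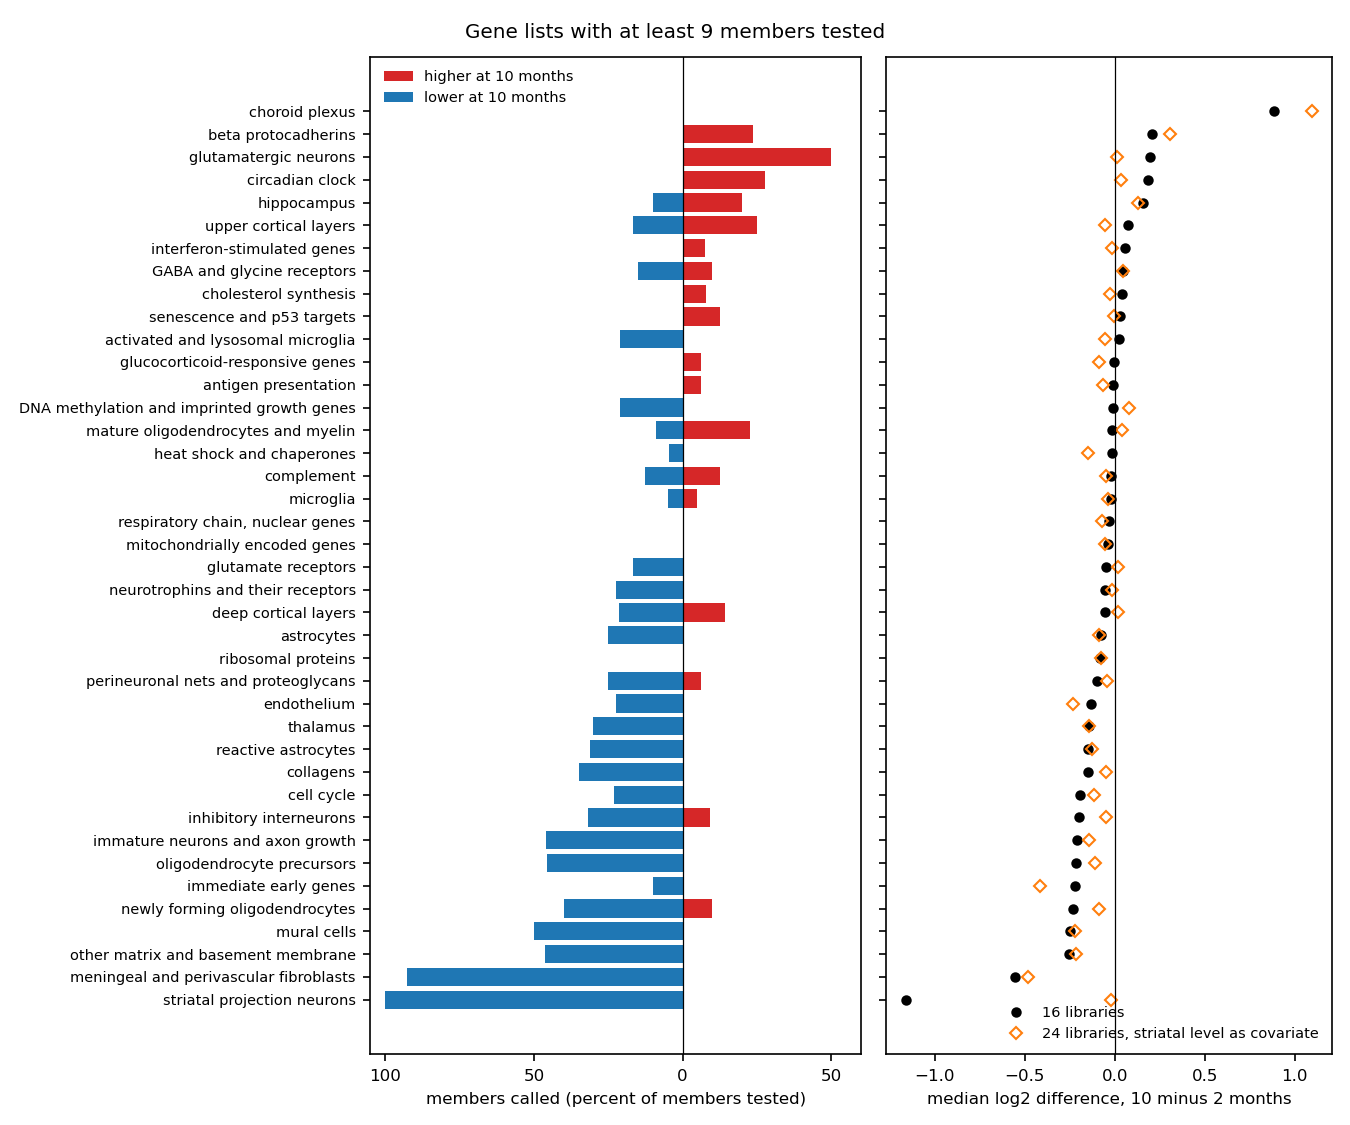
For 40 gene lists with at least 9 members tested, the left plot gives the percent of tested members called higher (red, to the right) or lower (blue, to the left) at 10 months, and the right plot gives the median log2 difference in the 16 libraries (black) and in 24 wild-type libraries with the striatal level as covariate (orange). The striatal list moves from -1.16 to about 0 with the covariate, and the fibroblast list from -0.55 to -0.48.

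Few genes separated 6 from 2 months, and many separated 10 from 6 months. Between 2 and 6 months 30 of 16843 genes differed (0.178%), 17 higher and 13 lower at 6 months, and between 6 and 10 months 1586 differed (9.42%), 580 higher and 1006 lower at 10 months. Both comparisons share libraries with that of 10 and 2 months. The striatal level in wild type had medians of 4.77, 4.86 and 3.56 at 2, 6 and 10 months. Female 2 and male 2 of 6 months (4.12 and 3.40) lay within the range of 10 months. These 2 comparisons were not fitted with that level as a covariate, and what sets their counts was not tested. Gatm, the creatine synthesis enzyme, ran from 112 over 121 to 126 CPM at 6 months, above all libraries of 2 months and below those of 10 months. Abca8a had a log2 difference of 0.65 from 2 to 6 months (adjusted p = 0.00019) and of 0.07 from 6 to 10 months (adjusted p = 0.68). Top2a fell in both steps, by 0.85 and by 0.91 on the log2 scale. Isl1 was at -0.29 from 2 to 6 months (adjusted p = 0.79) and at -3.87 from 6 to 10 months. The lists of precursors, fibroblasts and mural cells had median log2 differences of 0.005, 0.001 and -0.02 from 2 to 6 months. From 6 to 10 months these were -0.18, -0.59 and -0.28. The striatal list was at -0.07 and then at -1.13. The cell cycle list was at -0.11 and then at -0.08, and that of immature neurons and axon growth at -0.08 and then at -0.17. DESeq2 called 54 genes between 2 and 6 months.

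Females and males were compared in their age differences, and no gene passed the test of that difference. Of 16489 genes 0 (0%) had an age difference that differed between the sexes by edgeR, with 675 at an unadjusted p under 0.05 and 0 by DESeq2. Il33 rose by 0.56 ± 0.06 in females and by 0.47 ± 0.07 in males, and Top2a was at -1.74 ± 0.21 and -1.77 ± 0.19. Col3a1 was at -1.46 ± 0.26 in females and -1.58 ± 0.24 in males. Of the 34 genes named by p or size, 29 were called in the 8 female libraries alone and 33 in the 8 male ones. Those 34 were chosen by the fit that holds these same libraries, which favours that outcome. Among all genes called with both sexes together, 17% were also called in the female libraries alone and 35.3% in the male ones. Each of these fits had fewer libraries.

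Q20 mice, the cage mates, share no library with the wild types. Between their 2 and 10 months 2679 of 16954 genes differed (15.8%). Of these, 1243 were also called in wild type with the same sign, which is 46.4% of the Q20 genes and 79.6% of the wild-type genes. Of the 34 wild-type genes named by p or size all had the same direction in Q20 and 33 were called there, the exception being Grid2ip (log2 difference 0.42 ± 0.15, adjusted p = 0.057). Gatm rose by 0.44 ± 0.04 in Q20 and Il33 by 0.53 ± 0.05. Top2a was at -1.68 ± 0.13, Gpr17 at -0.65 ± 0.07 and Col3a1 at -1.50 ± 0.18. A test of the difference between the genotypes called 0 of 16954 genes (0%) by edgeR, with 383 at an unadjusted p under 0.05, and 0 by DESeq2. The difference of the Top2a changes was -0.07 ± 0.19. The Q20 libraries of 10 months had the same low striatal level (3.24 to 3.90) as the wild types.

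**Figure D5:**
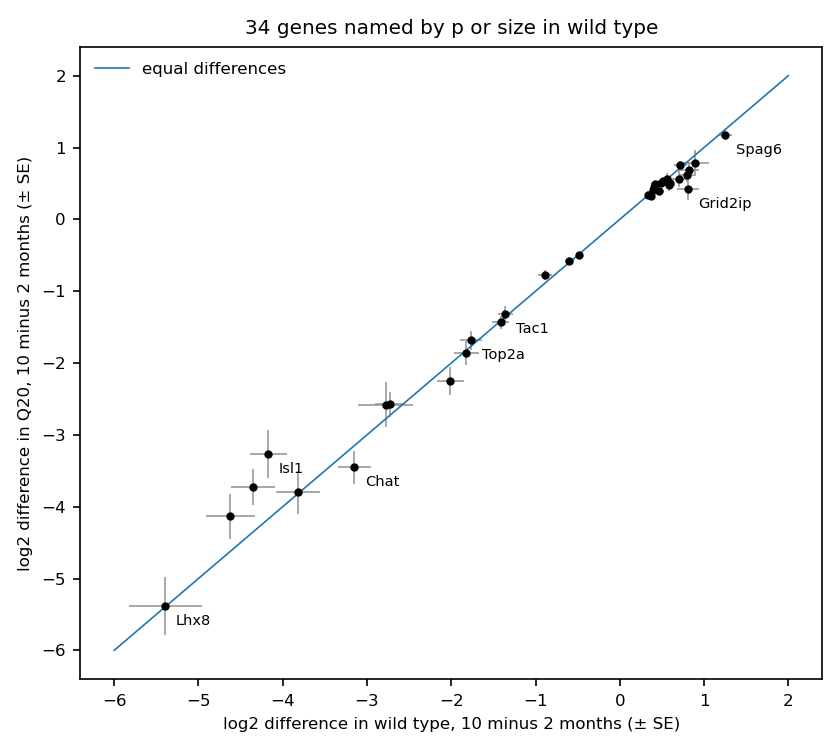
Log2 differences between 10 and 2 months with their standard errors in wild type (horizontal) and Q20 (vertical) for the 34 genes named by p or size in wild type, with the line of equal differences. All 34 lie on the same side of 0 in both genotypes, from Lhx8 near -5.39 to Spag6 at 1.25 in wild type.

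In mice heterozygous for Q175, the longest allele (nominal 175 CAG repeats), the age difference differed from that of wild type at 388 of 16953 genes (2.29%) by the interaction test, and at 597 by DESeq2. The difference was positive, wild type minus Q175, at 293 genes and negative at 95. The striatal level of Q175 ran from 3.70 over 4.515 to 4.72 at 2 months and from 3.03 over 3.15 to 3.72 at 10 months. The wild-type medians were 4.77 and 3.56. Neither this test nor that against Q20 was fitted with the striatal level as a covariate, and its part in these counts was not tested. The genes described in this paragraph each changed more in Q175 than in wild type. Klhl1, Dpysl3, Il33 and Rnf207, described in the next paragraph, changed more in wild type. Plk5, a polo-like kinase of neurons, had medians of 18.5 CPM and 18.0 CPM in wild type at 2 and 10 months and of 17.5 CPM and 4.66 CPM in Q175 (difference of the differences 1.76 ± 0.15, adjusted p = 1.5e-08). Gpr153, an orphan receptor, went from 23.7 CPM to 11.9 CPM in Q175 and from 26.3 CPM to 23.1 CPM in wild type. Onecut2, a homeodomain factor, went from 4.64 CPM to 13.5 CPM in Q175 and was at 4.65 CPM and 5.10 CPM in wild type, and Serpina3n, a protease inhibitor of reactive astrocytes, rose in Q175 from 8.30 CPM to 13.4 CPM. Hipk4, Dgat2l6 and Myh7 had positive differences of 0.67, 1.39 and 1.28.

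Of the genes named for wild type by p, size or list, 5 differed from Q175. Klhl1, an actin-binding protein of neurons, fell by 1.42 ± 0.10 in wild type and by 0.41 ± 0.10 in Q175, where its median at 2 months was 3.13 CPM against 4.22 CPM. Dpysl3, the growth cone protein, fell by 0.48 in wild type and by 0.11 in Q175 (difference -0.36 ± 0.05, adjusted p = 2.4e-05). Il33 rose by 0.51 and 0.30, Rnf207 by 0.47 and 0.17, and Abca8a, the other way, by 0.72 in wild type and by 1.14 in Q175. Top2a and Gpr17 did not pass the test of the difference (-0.25 and 0.27, adjusted p = 0.70 and 0.16).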

How the data were processed

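Cortical polyA RNA of 16 wild-type libraries was compared, 8 of 10 months and 8 of 2 months. The authors deposited estimated counts per gene ID (17.8% of values not whole), which were rounded here, and FPKM values per gene that the authors deposited beside them, used only in alternatives. Per the submitters' processing notes, CASAVA 1.8.2 was used. Which program, genome build and gene models gave these estimates: not given in the sources used here. GENCODE M21 (GRCm38) gave a symbol and a position to 37693 of 39179 IDs, and the rest made up 0.259% of what was counted.

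Genes were kept by filterByExpr (minimum count 10), scaled by TMM and tested with edgeR 4.0.16 (quasi-likelihood F test, R 4.3.3) with sex as covariate and Benjamini-Hochberg adjustment over all genes tested, at 0.05. The common biological coefficient of variation was 0.104. Levels are CPM scaled by TMM over all libraries of the series. Alternatives used DESeq2 1.42.0, limma 3.58.1 on log2(FPKM + 0.1), other scalings and filters, a replicate block, sexes apart, each library left out and, added after seeing the data, a striatal covariate and the removal of female 1 and female 2 of 2 months. The test was checked on simulated data.

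Members and gene lists were chosen with earlier results of these data known. Genes were named by the 15 smallest p-values and the 5 largest differences (at least 1 CPM) in each direction and by up to 4 called members of each list. Others mentioned, among them genes that did not pass the test, were chosen after their values were seen. Some genes that these rules name are not reported here.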

Additional observations from a re-analysis of the deposited data

Results flagged for a closer look

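Of 106 groups of 8 libraries tested, 8 given here held a library that lay far from the other 7 of its group by Dixon's criterion, which about 1 in 20 groups meet by chance. Female 2 of 2 months accounted for 3 of them. Its summed level was 7462 CPM for astrocyte genes, against 8615 to 9585 CPM in the others, 416.6 CPM for oligodendrocyte precursor genes, against 522.3 to 584 CPM, and 766.4 CPM for microglial genes, against 636 to 677 CPM. Female 1 of 2 months held 262.1 CPM of liver transcripts, against at most 1.87 CPM. Female 4 of 2 months held 115.2 CPM of choroid plexus transcripts, against at most 48.7 CPM, and male 4 of 2 months held 89.44 CPM of pituitary and hypothalamic transcripts, against at most 20.9 CPM. Pcdhb9 was at 9.074 CPM in male 3 of 2 months, against 10.6 CPM or more. At 10 months, microglial genes summed to 706.3 CPM in male 2, against at most 676 CPM.

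Of the genes named for wild type by p, size or list, 5 had an age difference that differed from that in Q175. The interaction test with edgeR ran across all genes and called 388. On the log2 scale, the difference of the age differences, wild type minus Q175, was 0.2189 for Il33, -0.4151 for Abca8a, 0.2988 for Rnf207, -1.004 for Klhl1 and -0.3637 for Dpysl3.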

How the results depend on the processing

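The count of called genes (1561, with 616 higher and 945 lower) depended most on the striatal level. With that level as covariate the count was 31 (22 higher, 9 lower) in the 24 wild-type libraries, where the fit without it gave 1995. In all libraries of the series it was 534 (262 and 272), where the fit without the covariate gave 2801 (1277 and 1524). Only females gave 276 (41 and 235) and only males 668 (238 and 430), with fewer libraries each. Leaving out 1 library gave 1195 to 2153 genes, of them 426 to 944 higher, the most without female 2 of 2 months. Limma on log2(FPKM + 0.1) gave 405 higher genes, and 325 without a filter. DESeq2 gave 1924 genes, upper-quartile scaling 1517 and no filter 1383. Of the genes named by p or size, 34 of 34 stayed called without any 1 library. Of 148 named genes and list members, 130 did. The 34 were chosen by the fit of these same libraries, which favours that outcome. Of all 1561 called genes, 74.2% to 95.8% stayed called in the fits that left out 1 library. With the covariate in 24 libraries 9 list members changed sign, Nptx1 (-0.02), Crym (0.03), Gad2 (0.01), Gpr6 (0.06), Cpne9 (-0.0023), Gria1 (0.03), Grik2 (0.01), Gabrg1 (0.0033) and Grb10 (0.08). The causes of these differences were not tested.

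Same-numbered libraries did not deviate together (0 of 8 correlations above 0.1, from -0.101 to 0.0286). The numbers were not used as pairs in the main test, and these correlations cannot exclude a weak pairing. A replicate block gave 1009 genes (349 higher), and 16 between 2 and 6 months in place of 30. DESeq2 gave 54 there and 597 for the Q175 interaction in place of 388. The tests between sexes and between wild type and Q20 gave 0 genes with DESeq2, without a filter and with the block. At the depth of these libraries the level of Lhx8 at 10 months came to 0 in the lowest.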
